A study of Homo sapiens with 24 samples.

Results

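Dimethyl fumarate (DMF) was set against its solvent after 12 h of culture in HBL-1. This established line was grown from a human diffuse large B-cell lymphoma and belongs to the activated B-cell-like (ABC) subtype. The comparison takes the libraries labelled DMF, 20 µM, 12 h and those labelled control, 12 h, which are 6 of the 24 RNA-seq libraries of the series, 3 in each group. In the first group HBL-1 cells received 20 µM DMF dissolved in DMSO, and in the second the same line received DMSO. Both groups were cultured in RPMI-1640 to which 20% FCS, Pen/Strep and Plasmocin had been added. The other 18 libraries cover the same treatments at 6, 24 and 48 h, and the title of the series names ferroptosis and signalling through NF-κB and STAT3 as its subjects. All of the results come from a single cell line, and the labels do not say whether the replicates were separate cultures, so p-values measure the spread between libraries only, which may be technical.

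DMF is an electrophilic ester that reacts with cysteine thiols, among them those of glutathione and of KEAP1. KEAP1 is the adaptor through which the CUL3 ubiquitin ligase marks the transcription factor NRF2 (gene NFE2L2) for destruction. When KEAP1 cysteines are modified, NRF2 escapes degradation, pairs with small MAF proteins and binds antioxidant response elements in genes of thiol reduction, detoxification, iron storage and NADPH supply. Activated B-cell-like lymphoma lines depend on NF-κB activity driven by B cell receptor and MYD88 signalling, and on an autocrine cytokine loop through STAT3.

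Replicate 3 of each 12 h group carried an excess of short transcripts, so the comparison rests on replicates 1 and 2 of each group, 4 libraries in all. Weighted by counts, effective transcript length averaged 2121 bases in DMF replicate 3 and 1902 bases in control replicate 3, against 2850 to 3157 bases in the other 22 libraries. Ribosomal protein transcripts took 20.6% of counts in DMF replicate 3 and 26.17% in control replicate 3, against 8.6% to 13.78% elsewhere. The 4 libraries compared held between 31472814 and 40906596 counts. None of the 10 genes listed for activated B-cell-like B cells was at 0, and their summed level lay between 5072 and 6597 CPM (counts per 1000000) in the 3 DMF libraries and between 5573 and 7999 CPM in the 3 controls. Summed markers stayed between 0.269 and 0.407 CPM in DMF and between 0.157 and 0.699 CPM in control for the 6 T cell genes in the tables (CD3G, CD4 and CD2 at 0), and between 3.84 and 4.79 CPM in DMF and between 3.53 and 5.44 CPM in control for 6 myeloid genes (FCGR3A at 0). They stayed between 3.07 and 3.75 CPM in DMF and between 4.13 and 4.83 CPM in control for 4 epithelial genes. Fibroblast genes (4, DCN at 0) summed to between 0.313 and 0.528 CPM in DMF and between 0.249 and 0.318 CPM in control, and erythroid genes (3, HBB among those at 0) to between 0.352 and 1.35 CPM in DMF and between 0.133 and 0.542 CPM in control. The T cell gene that passed the filter was CD8A. Its levels, scaled with TMM factors unlike the sums above, were 0.219 and 0.243 CPM in DMF and 0.648 and 0.383 CPM in control. It was called lower, and its replicate 3 difference was 1.68 on the log2 scale. That call was lost without DMF replicate 1 (-1.06), DMF replicate 2 (-1.20) or control replicate 1 (-0.72). It was also lost with a replicate block (adjusted p = 0.066), with no low-count filter (0.058), in DESeq2 (0.072) and in the 4 libraries alone (0.061). In a bulk sample, fewer cells of a type and less RNA per cell cannot be told apart.

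After 12 h most of the listed antioxidant response genes, chaperones of cytosol and endoplasmic reticulum, proteasome subunits and lysosomal genes were called higher in DMF, and most interferon-stimulated and DNA replication genes were called lower. Of 13606 genes that passed the low-count filter among the 21831 in the tables, 3277 were called higher in DMF (24.1%) and 3238 lower (23.8%) at an adjusted p under 0.05 in edgeR's quasi-likelihood test. A change of at least 2-fold was seen in 272 of the genes called higher (2.0% of genes tested) and in 603 of those called lower (4.43%). The median log2 fold change of all genes tested was 0.00. Calls were nearly equal in number in the 2 directions, while changes of 2-fold and more were more often decreases. These shares of all genes tested are the background for the list counts below, so a list near them does not stand out. Below, values in CPM were scaled with TMM factors and are given for replicates 1 and 2 in that order, and each fold change is the log2 of DMF over control with its standard error (n = 2 libraries each). The standard errors come from a fit of 22 libraries in 8 groups, so they draw on the spread at the other times too. When the replicate 3 libraries entered the fit with all 24 libraries, the common dispersion was 0.05209 instead of 0.002118 and 989 genes were called higher and 1335 lower, of which 972 and 1296 were among the genes called without them. Entered as matched pairs of the 6 libraries of 12 h, they left 1307 genes called higher, 1808 lower and 177 higher by at least 2-fold. Of the genes that have values in the text and were called, 49 were not called with all 24 libraries, and 23 were not called in the matched pairs. Those 23 were ACSL4, ALDOA, CD8A, CDC20, CIITA, FH, GCH1, HSPB1, IRF4, MEF2B, MYC, MYD88, PARP9, PGD, PIM1, POLR1C, PTPRC, RBX1, RELA, STAT2, TFEB, WARS and YARS.

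**Figure D1:**
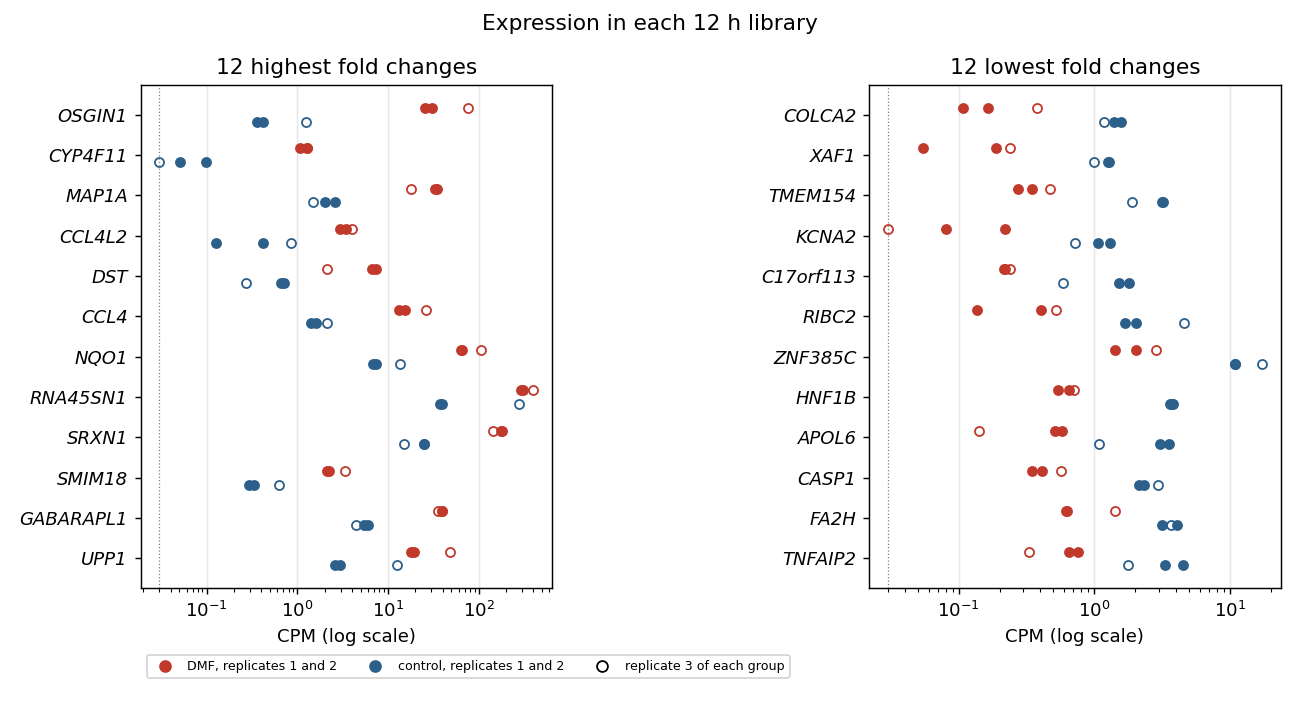
CPM on a log axis in each 12 h library for the 12 highest and the 12 lowest fold changes, DMF in red above control in blue, with filled points for replicates 1 and 2 and open points for replicate 3; the dotted line at the left edge marks values of 0 (KCNA2 in DMF replicate 3 and CYP4F11 in control replicate 3). The filled DMF points lie on one side of the filled control points in each gene because the 24 were chosen for that. The choice also required the replicate 3 pair to differ in the same direction. The open points of RNA45SN1 lie close together, at 399 CPM in DMF and 278 CPM in control.

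Among the NRF2 targets, 30 of 36 listed genes passed the filter, 24 of them were called higher and 1 lower, and 15 were higher by at least 2-fold. Their median log2 fold change was 0.99, beside 0.00 for all genes tested. The genes that did not pass were ME1, ABCC3 and the aldo-keto reductases AKR1B10, AKR1C1, AKR1C2 and AKR1C3, with at most 3 counts in any 12 h library. The member called lower was MGST1, a microsomal glutathione transferase (-0.56 ± 0.06). The largest change was in OSGIN1 (oxidative stress induced growth inhibitor, chromosome 16: 83948282-83966332 in GRCh38), which had 25.9 and 30.8 CPM in DMF libraries, against 0.421 and 0.358 CPM in controls. The log2 fold change was 6.19 ± 0.16 (adjusted p = 1.5e-20 in edgeR), a 72.8-fold difference, and the replicate 3 pair had 76.3 CPM in DMF and 1.26 CPM in control. No DMF library overlapped a control, which for replicates 1 and 2 was required by the rule that named this gene. That rule also required DMF to be above control in the replicate 3 pair.

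Enzymes that reduce quinones, thiols and peroxides were raised as well. NQO1, a quinone reductase on chromosome 16 (69706996 to 69726951), had 63.5 and 66 CPM in DMF, against 7.29 and 6.75 CPM in control (log2 fold change 3.21 ± 0.08, adjusted p = 4.6e-21). SRXN1, sulfiredoxin, which reduces overoxidised peroxiredoxins, had 181 and 176 CPM in DMF, against 24.7 and 25.1 CPM in control (2.84 ± 0.06, adjusted p = 6.2e-23). TXNRD1, cytosolic thioredoxin reductase, had 1059 and 1016 CPM in DMF and 254 and 277 CPM in control (1.97 ± 0.05, adjusted p = 4.9e-21). In all 3 genes every DMF library was above every control, replicate 3 included. The genes were named for a small p or a large change, so the separation of replicates 1 and 2 follows from that choice. For NQO1 and SRXN1 a rule that named them also required DMF to be above control in the replicate 3 pair. The replicate 3 pair of TXNRD1 had 491 CPM in DMF and 104 CPM in control. TXN, thioredoxin itself, had 283 and 319 CPM in DMF and 156 and 139 CPM in control (1.03 ± 0.08), and PRDX1, a peroxiredoxin, rose by 0.65 ± 0.06 on the log2 scale. Of the 15 thioredoxin and peroxiredoxin genes, 10 were called higher and 3 lower. Those called lower were GLRX, a glutaredoxin, TXNIP, which binds thioredoxin, and TXNRD2, the mitochondrial reductase, with log2 fold changes of -1.16, -0.63 and -0.34. TXNRD2 was not called without DMF replicate 1 (-0.20) or control replicate 1 (-0.31).

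In glutathione metabolism, the enzymes of the rate-limiting step and of recycling were higher. GCLM, the modifier subunit of glutamate-cysteine ligase, had 80.1 and 74.9 CPM in DMF and 21.2 and 21.8 CPM in control (1.85 ± 0.06, adjusted p = 2.9e-18). GCLC, its catalytic subunit, had 387 and 372 CPM in DMF and 174 and 173 CPM in control (1.13 ± 0.04), and GSR, glutathione reductase, 371 and 376 CPM in DMF and 134 and 139 CPM in control (1.45 ± 0.05). The cystine transporter is formed by SLC7A11 and its heavy chain SLC3A2. SLC7A11 had 13.2 and 11.8 CPM in DMF and 6.45 and 6.47 CPM in control (0.95 ± 0.10, adjusted p = 2.2e-08), and SLC3A2 331 and 355 CPM in DMF and 153 and 165 CPM in control (1.11 ± 0.06). In the replicate 3 pair the log2 difference of SLC7A11 was 0.16 and that of SLC3A2 0.71. GSS, glutathione synthetase, was not called (-0.01 ± 0.06), nor was GPX4, the peroxidase that reduces lipid peroxides (0.04 ± 0.07, adjusted p = 0.69 in edgeR). For GPX4 the replicate 3 difference was -0.70, or -0.27 after the pair's trend with transcript length was subtracted. GSTK1, a mitochondrial and peroxisomal glutathione transferase, was lower at 18.8 and 18.9 CPM in DMF and 36 and 33.8 CPM in control (-0.89 ± 0.07, adjusted p = 2.9e-10). Of the 20 listed genes of cystine import and glutathione that passed the filter, 7 were called higher and 6 lower.

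Iron storage and heme breakdown genes were higher. HMOX1, heme oxygenase, which releases iron from heme, had 271 and 266 CPM in DMF and 42.8 and 46.4 CPM in control (2.59 ± 0.06, adjusted p = 2.4e-21). The ferritin chains store that iron: FTL had 4043 and 4351 CPM in DMF and 919 and 908 CPM in control (2.20 ± 0.06), and FTH1 1208 and 1280 CPM in DMF and 368 and 375 CPM in control (1.74 ± 0.06). These 3 genes were named for their small p, so the lack of overlap between the groups in replicates 1 and 2 follows from that choice. The replicate 3 pair of FTH1 had 3211 CPM in DMF and 1449 CPM in control. TFRC, the transferrin receptor, had 879 and 831 CPM in DMF and 656 and 699 CPM in control (0.33 ± 0.06, adjusted p = 8.3e-05). PPOX, an enzyme of heme synthesis, fell to 3.45 and 4.42 CPM in DMF, against 7.84 and 8.18 CPM in control (-1.03 ± 0.13), whereas FECH, the enzyme that inserts iron into heme, rose (0.48 ± 0.06). The iron regulators IREB2, ACO1 and NCOA4 were not called, at -0.09, 0.03 and 0.07 on the log2 scale. Of 22 heme and iron genes, 9 were called higher and 1 lower.

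Among genes of NADPH supply through the pentose phosphate pathway, TALDO1, transaldolase, rose (405 and 423 CPM in DMF, 180 and 175 CPM in control, 1.22 ± 0.06). TKT and PGD rose by 0.54 ± 0.05 and 0.29 ± 0.04. The folate enzyme MTHFD1 fell by 0.45 ± 0.04 on the log2 scale. Of 14 genes in the list 4 were called higher and 5 lower. Among 18 genes that control lipid peroxides in ferroptosis, 8 were called higher and 5 lower. AIFM2, a ubiquinone reductase that limits lipid peroxidation, had 72.8 and 72.2 CPM in DMF and 37.6 and 37.3 CPM in control (0.95 ± 0.08, adjusted p = 2.2e-10). ALOX5, arachidonate 5-lipoxygenase, was lower at 1.23 and 1.35 CPM in DMF and 5.38 and 3.99 CPM in control (-1.84 ± 0.16, adjusted p = 5.9e-10), and GCH1, which starts tetrahydrobiopterin synthesis, fell by 0.44 ± 0.06. ACSL4, which loads polyunsaturated fatty acids into membrane lipids, rose by 0.21 ± 0.05, a call that was lost without DMF replicate 1 and without control replicate 2 (0.16 in both).

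The genes that set NRF2 activity were mostly higher too. Of 12 regulators, 10 were called higher and 1 lower, with a median log2 fold change of 0.52. MAFG, a small MAF partner of NRF2, had 147 and 160 CPM in DMF and 63.9 and 74.1 CPM in control (1.15 ± 0.08, adjusted p = 1.1e-11). KEAP1 had 198 and 202 CPM in DMF and 113 and 118 CPM in control (0.79 ± 0.06), and NFE2L2, which encodes NRF2, 95.7 and 91.3 CPM in DMF and 64.6 and 56.3 CPM in control (0.63 ± 0.06, adjusted p = 1.1e-08). BACH1, a repressor that competes with NRF2 for its sites, rose by 0.62 ± 0.07, and the ligase scaffold CUL3 by 0.38 ± 0.04. RBX1, the ring subunit of that ligase, was called lower (-0.26 ± 0.08, adjusted p = 0.0049), but not without DMF replicate 1 (-0.21) or control replicate 1 (-0.16).

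Promoter windows of RefSeq (build GRCh38.p14), each from 250 bases before to 50 bases after a start site, were found for 10259 of the genes tested and searched on both strands. The core antioxidant response element TGACNNNGC was present in a window of 8 of 22 NRF2 targets with a window (36.4%), of 19.3% of all such genes and of 23.4% of the genes higher by at least 2-fold. Stretches with a match are shown for the list members with the smallest p among those called in the list's main direction, leaving out any stretch that ran on for more than 10 bases past the start site. Capitals mark the match. A match describes the letters and does not show binding. For the antioxidant response element, the TXNRD1 stretch lies at chr12:104215655-104215713 on the plus strand and the GCLM stretch chr1:93909431-93909489 on the minus strand, and both are written 5′ to 3′ along the gene. The match begins at position -99 from the TXNRD1 start site and at -34 from that of GCLM.
TXNRD1: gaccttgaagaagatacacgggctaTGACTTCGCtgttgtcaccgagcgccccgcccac
GCLM: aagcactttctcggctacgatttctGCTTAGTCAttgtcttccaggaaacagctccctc
The GCLM match reads as the element on the opposite strand.

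**Figure D2:**
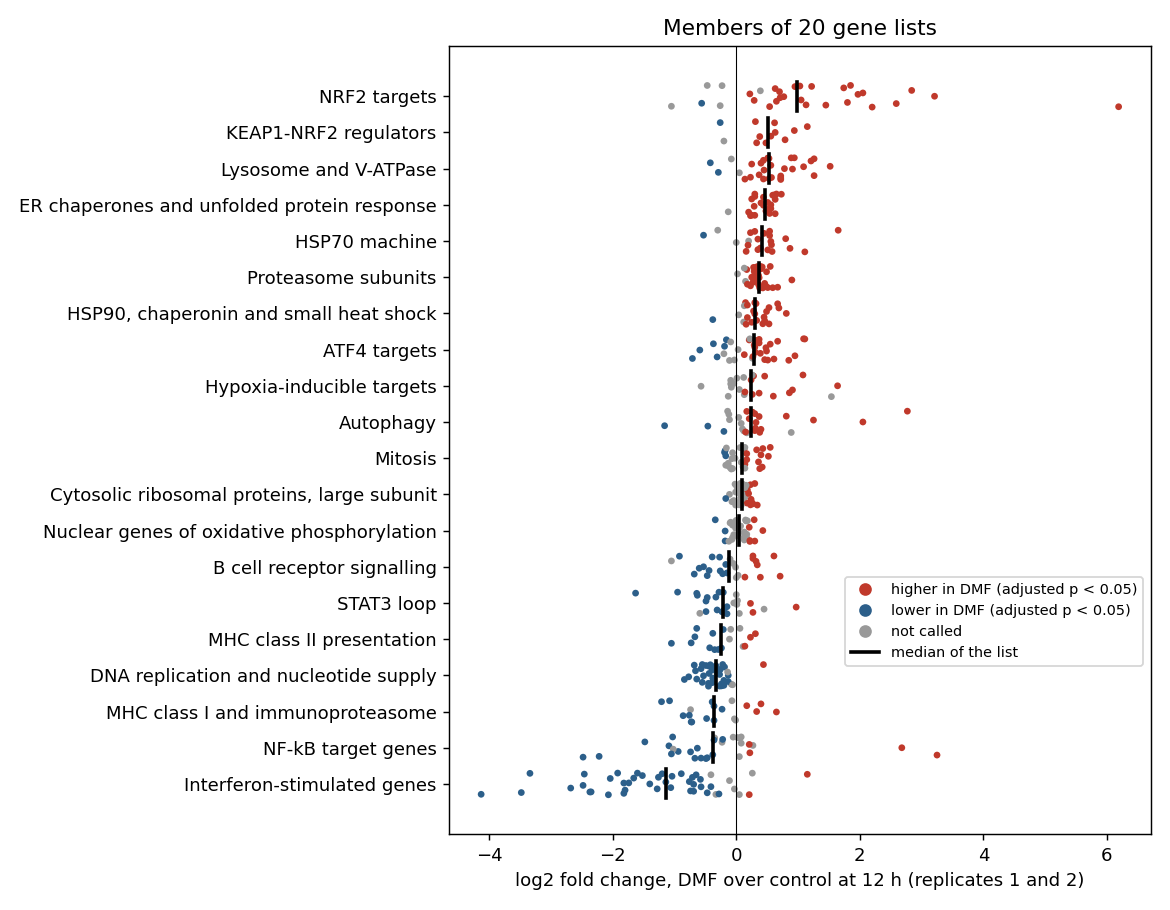
Log2 fold change, DMF over control at 12 h in replicates 1 and 2, for each tested member of 20 gene lists, one point a gene, red where called higher, blue where called lower, grey where not called, with a black bar at the list median. NRF2 targets have the highest median, 0.99, and interferon-stimulated genes the lowest, -1.14.

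Most chaperone genes were higher. Of 22 genes of the HSP70 machine, 18 were called higher and 1 lower (median 0.42), and of 23 genes of HSP90, the chaperonin and small heat shock proteins 19 were called higher and 1 lower (median 0.30). DNAJB4, an HSP40 co-chaperone, had 14.7 and 14 CPM in DMF and 4.02 and 5.04 CPM in control (1.65 ± 0.10, adjusted p = 2.4e-12). BAG3, a nucleotide exchange factor that sends HSP70 clients to autophagy, had 41.7 and 38.8 CPM in DMF and 19.2 and 18.2 CPM in control (1.11 ± 0.06). HSP90AA1, the inducible HSP90, had 2226 and 2284 CPM in DMF and 1282 and 1297 CPM in control (0.81 ± 0.05, adjusted p = 7.3e-13). Its constitutive paralog HSP90AB1 rose by 0.46 ± 0.04. HSPA1B, inducible HSP70, had 26.7 and 23.9 CPM in DMF and 13.7 and 13.9 CPM in control (0.87 ± 0.07), and HSPA1A was not called (0.20 ± 0.76); the 2 genes are near-identical, so the split of reads between them is uncertain. HSPB1, a small heat shock protein, rose by 0.69 ± 0.06 in replicates 1 and 2 but differed by -0.14 in the replicate 3 pair. That difference was 0.30 after the pair's trend with transcript length was subtracted.

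In the endoplasmic reticulum, 23 of 24 chaperone and unfolded protein response genes were called higher and none lower, with a median of 0.46. The sensor ATF6 was the one not called (-0.13 ± 0.07). HSPA5, the luminal HSP70 that holds the stress sensors inactive, had 912 and 951 CPM in DMF and 646 and 617 CPM in control (0.56 ± 0.04, adjusted p = 1.1e-10). The lectin chaperones CALR and CANX rose by 0.65 ± 0.06 and 0.54 ± 0.05, the disulfide isomerase P4HB by 0.59 ± 0.05, and MANF, a secreted stress protein, by 0.63 ± 0.06. None of these genes changed by 2-fold. The endoplasmic reticulum stress element, bound by NF-Y and ATF6 and searched as CCAAT, 9 bases of any kind and CCACG, occurred in a promoter window of 7 of 23 of these genes with a window (30.4%), of 0.175% of all genes and of none of 175 genes higher by at least 2-fold. It is shown for HSPA5 at chr9:125241366-125241434 on the minus strand and CALR at chr19:12938359-12938427 on the plus strand, where the match is on the opposite strand.
HSPA5: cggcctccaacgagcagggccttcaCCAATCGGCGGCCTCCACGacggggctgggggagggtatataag
CALR: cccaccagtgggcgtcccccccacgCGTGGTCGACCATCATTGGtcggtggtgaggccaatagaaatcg

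Of 34 targets of ATF4, the transcription factor of the integrated stress response, 21 were called higher and 6 lower, with a median of 0.30. The amino acid transporters SLC1A5 and SLC7A5 rose by 0.61 ± 0.05 and 0.49 ± 0.04. DDIT3, the stress transcription factor CHOP, had 15.2 and 14.8 CPM in DMF and 6.32 and 7.69 CPM in control (1.09 ± 0.10, adjusted p = 2.5e-09). PPP1R15A, which restores translation by dephosphorylating eIF2α, had 46.7 and 54.6 CPM in DMF and 25.9 and 30 CPM in control (0.85 ± 0.08). ATF4 itself was not called (0.03 ± 0.05). VLDLR, a lipoprotein receptor, was called lower at -0.71 ± 0.15, and so was CHAC1, which degrades glutathione, at -0.37 ± 0.12. The call of CHAC1 was lost without DMF replicate 1 (-0.37) and without control replicate 2 (-0.26). Cytosolic aminoacyl-tRNA synthetases moved in both directions, with 9 of 20 called higher, such as WARS and YARS (0.33 and 0.32), and 4 lower, such as QARS and RARS (-0.54 and -0.43).

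Proteasome genes were higher in modest steps. Of 33 proteasome subunits 30 were called higher and none lower (median 0.36). PSMD14, the deubiquitinase of the regulatory particle, had 208 and 202 CPM in DMF and 108 and 112 CPM in control (0.90 ± 0.06, adjusted p = 3.3e-12). PSMD11, which helps assemble that particle, rose by 0.67 ± 0.04, and the catalytic subunit PSMB5 by 0.51 ± 0.06. In the replicate 3 pair 20 of the 33 subunits were above 0, with a median of 0.06, or 0.30 after the length trend was subtracted. The median effective length of proteasome transcripts was 1278 bases, against 2636 bases for all genes tested, and shorter transcripts were lower in that pair.

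Of 28 autophagy genes 16 were called higher and 3 lower, and 3 rose and 1 fell by at least 2-fold. SQSTM1, the receptor p62, had 1333 and 1355 CPM in DMF and 319 and 331 CPM in control (2.05 ± 0.05, adjusted p = 7.5e-21). GABARAPL1, an ATG8 protein of the autophagosome membrane, had 39.2 and 39 CPM in DMF and 6.03 and 5.5 CPM in control (2.77 ± 0.12), and MAP1LC3B 85.2 and 85.3 CPM in DMF and 49.3 and 47.7 CPM in control (0.81 ± 0.06). The ATG8 gene MAP1LC3A rose by 1.25 ± 0.26. MAP1LC3B has a near-identical copy, MAP1LC3B2, so its reads may be split. ULK2, a kinase that starts autophagy, was lower at 6.15 and 6.52 CPM in DMF and 14.3 and 14 CPM in control (-1.16 ± 0.11, adjusted p = 4.8e-09).

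Of 29 lysosome and V-ATPase genes that passed the filter, 25 were called higher and 2 lower, and 5 were higher by at least 2-fold. Their median was 0.53, and in the replicate 3 pair it was 0.50. NEU1, a sialidase, had 63.5 and 60.3 CPM in DMF and 21.7 and 21.6 CPM in control (1.52 ± 0.07, adjusted p = 8.2e-15). PSAP, the precursor of the saposins that help degrade sphingolipids, had 693 and 703 CPM in DMF and 282 and 301 CPM in control (1.26 ± 0.04), and GLA, a galactosidase, 189 and 196 CPM in DMF and 78.7 and 82.7 CPM in control (1.26 ± 0.06). The proton pump subunit ATP6V0A1 had 160 and 167 CPM in DMF and 72.7 and 68.4 CPM in control (1.21 ± 0.05). The 4 genes were named for their small p, so the lack of overlap between the groups in replicates 1 and 2 follows from that choice. DMF was also above control in their replicate 3 pairs. TFEB, the transcription factor that binds CLEAR elements in lysosomal genes, rose by 0.15 ± 0.06 (adjusted p = 0.034), but was not called without DMF replicate 2 (0.09), control replicate 1 (0.15) or control replicate 2 (0.14), and was -0.04 in the fit of all 24 libraries. The call was also lost with a replicate block (adjusted p = 0.056) and with no low-count filter (adjusted p = 0.053). The CLEAR letters TCACGTGA were found in a window of 6 of 17 of these genes (35.3%), of 2.27% of all genes and of 2.29% of the genes higher by at least 2-fold. It is shown for CTSA, cathepsin A, at chr20:45891284-45891341, LAMP1, a membrane protein, at chr13:113297185-113297242, and ATP6V1G1, a pump subunit, at chr9:114587685-114587742, all on the plus strand, with log2 fold changes of 0.94, 0.78 and 0.53.
CTSA: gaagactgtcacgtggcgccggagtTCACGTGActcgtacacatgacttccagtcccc
LAMP1: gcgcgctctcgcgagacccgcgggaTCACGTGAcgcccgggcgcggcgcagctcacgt
ATP6V1G1: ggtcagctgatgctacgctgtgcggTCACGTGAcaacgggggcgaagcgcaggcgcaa

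Interferon-stimulated genes, which encode antiviral effectors and RNA sensors, had the lowest median of the lists plotted. Of 52 listed, 45 passed the filter, 37 were called lower and 2 higher, and 25 were lower by at least 2-fold. The median log2 fold change was -1.14, and in the replicate 3 pair, where 42 of 45 were below 0, it was -1.22. IFIH1, the RNA sensor MDA5 (chromosome 2: 162267079-162318703), had 1.23 and 1.56 CPM in DMF and 8.1 and 7.39 CPM in control (-2.46 ± 0.18, adjusted p = 2e-11). OAS1, which makes the second messenger 2-5A, had 8.56 and 8.33 CPM in DMF and 25.2 and 25.9 CPM in control (-1.60 ± 0.10). SAMD9, an antiviral restriction factor, had 1.15 and 1.4 CPM in DMF and 6.81 and 6.44 CPM in control (-2.37 ± 0.17). MX2, an antiviral GTPase, fell to 65.9 and 66.2 CPM in DMF, against 109 and 105 CPM in control (-0.69 ± 0.05, adjusted p = 8e-12). XAF1, a pro-apoptotic inhibitor of XIAP, had 0.0547 and 0.189 CPM in DMF and 1.26 and 1.28 CPM in control (-3.34 ± 0.41, adjusted p = 2.2e-07). TNFSF10, the death ligand TRAIL, was at 0.356 and 0.35 CPM in DMF and 1.88 and 1.76 CPM in control (-2.35 ± 0.29). STAT2, which carries the interferon signal, fell by 0.28 ± 0.07 on the log2 scale, while IRF9, its partner, was not called (-0.03 ± 0.08).

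IFI30 was called higher, with 532 and 549 CPM in DMF and 242 and 246 CPM in control (1.15 ± 0.05, adjusted p = 3.3e-15). It encodes a lysosomal thiol reductase, and it was joined by PARP9, the other member called higher (0.21 ± 0.06), whose call was lost without DMF replicate 1 (0.15) and without control replicate 1 (0.19). The core of the interferon-stimulated response element, searched as GAAA, 2 bases of any kind and GAAA, was found in a promoter window of 23 of 33 of these genes with a window (69.7%), of 4.13% of all genes and of 9.5% of the genes lower by at least 2-fold. The stretches lie at chr2:162318809-162318868 (IFIH1, minus strand), chr7:93118081-93118140 (SAMD9, minus strand), chr3:122680785-122680844 (PARP14, plus strand) and chr15:88638922-88638981 (ISG20, plus strand).
IFIH1: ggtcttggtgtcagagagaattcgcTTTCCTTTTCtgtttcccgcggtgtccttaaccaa
SAMD9: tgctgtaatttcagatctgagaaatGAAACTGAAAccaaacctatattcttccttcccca
PARP14: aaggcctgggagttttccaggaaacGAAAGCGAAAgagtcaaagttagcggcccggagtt
ISG20: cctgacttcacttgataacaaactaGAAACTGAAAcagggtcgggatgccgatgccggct
PARP14, an ADP-ribosyltransferase, had 9.24 and 8.06 CPM in DMF and 20.8 and 20.7 CPM in control (-1.26 ± 0.13), and ISG20, an exonuclease, 48.5 and 48.5 CPM in DMF and 75.9 and 80.4 CPM in control (-0.69 ± 0.08). The IFIH1 match reads as the element on the opposite strand.

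**Figure D3:**
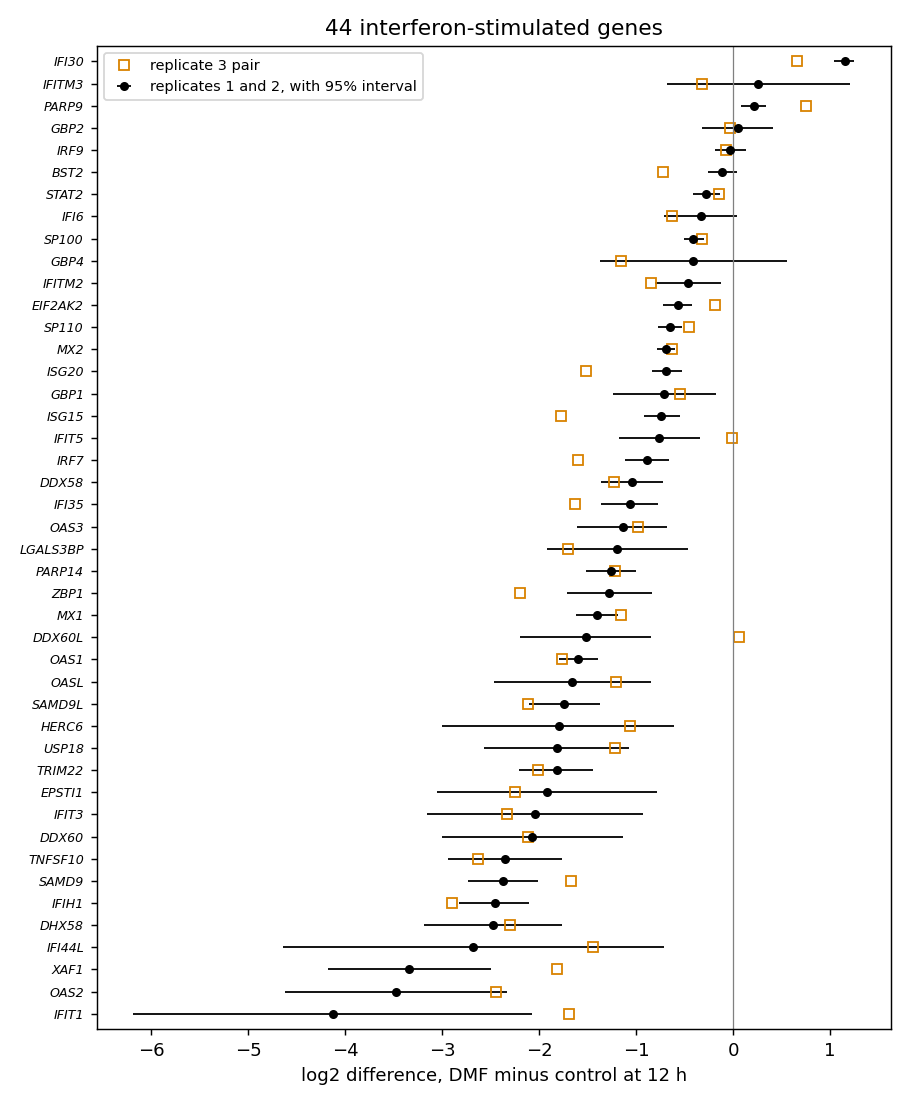
Log2 difference, DMF minus control at 12 h, of 44 interferon-stimulated genes, black for replicates 1 and 2 with the 95% interval and orange squares for the replicate 3 pair. Points below 0 dominate in both, from IFIT1 at -4.13 up to IFI30 at 1.15, and the intervals widen for the least expressed genes.

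Genes of antigen presentation through MHC class I were mostly lower, with 4 of 19 called higher and 11 lower. PSMB9, an interferon-inducible proteasome subunit, had 7.69 and 7.68 CPM in DMF and 18.3 and 17.4 CPM in control (-1.21 ± 0.11). PSMB8, another such subunit, had 26.5 and 28.1 CPM in DMF and 47.2 and 51.7 CPM in control (-0.86 ± 0.07). TAP1, a peptide transporter, and TAPBP, tapasin, fell by 0.72 ± 0.07 and 0.76 ± 0.05. The heavy chains HLA-B and HLA-C were not called (-0.03 and -0.07). Reads of HLA genes depend on how the line's alleles match the reference, so these levels are uncertain. Of 17 class II genes 3 were called higher and 10 lower, among them the regulator RFX5 (36 and 37.7 CPM in DMF, 56.7 and 60.8 CPM in control, -0.67 ± 0.05) and HLA-DOA, a modulator of peptide loading (-1.05 ± 0.09), while the master regulator CIITA was called higher (0.31 ± 0.08).

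Of 24 NF-κB subunits and feedback genes 6 were called higher and 10 lower. The 3 that fell by at least 2-fold are genes that NF-κB itself induces. TNFAIP3, the ubiquitin-editing enzyme A20 (chromosome 6: 137867188-137883312), had 36.8 and 37.5 CPM in DMF and 101 and 102 CPM in control (-1.45 ± 0.06, adjusted p = 3.5e-16). NFKBIA, the inhibitor IκBα, had 45.1 and 45.5 CPM in DMF and 107 and 100 CPM in control (-1.19 ± 0.06, adjusted p = 2.1e-14), and NFKBIZ, a nuclear IκB protein, 45.6 and 49.7 CPM in DMF and 103 and 102 CPM in control (-1.10 ± 0.05). In each of the 3 both DMF libraries were below both controls, which follows from naming them for a small p. Their replicate 3 pairs had log2 differences of -0.75, -0.80 and -0.46. The subunit gene NFKB2 fell by 0.76 ± 0.06. RELA was called higher (0.27 ± 0.05).

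Of 30 NF-κB target genes that passed the filter, 4 were called higher and 16 lower, with a median of -0.37. CD40, a costimulatory receptor, had 42.9 and 42.5 CPM in DMF and 124 and 115 CPM in control (-1.48 ± 0.06, adjusted p = 2.8e-16). The apoptosis inhibitor BIRC3 had 40.8 and 37.7 CPM in DMF and 79.6 and 80.5 CPM in control (-1.03 ± 0.05), the chemokine CCL22 22.8 and 24.3 CPM in DMF and 49.6 and 50.4 CPM in control (-1.09 ± 0.07), and the cytokine subunit EBI3 22.3 and 22.3 CPM in DMF and 48.7 and 43.6 CPM in control (-1.05 ± 0.07). TNFAIP2, a TNF-induced gene, was one of the 12 lowest fold changes plotted by library, with 0.656 and 0.755 CPM in DMF and 3.31 and 4.52 CPM in control (-2.48 ± 0.20). The chemokines CCL4 and CCL3 were higher instead. CCL4 had 13.3 and 15.4 CPM in DMF and 1.59 and 1.43 CPM in control (3.25 ± 0.15, adjusted p = 2.6e-15), and CCL3 6.95 and 7.63 CPM in DMF and 1.39 and 0.92 CPM in control (2.68 ± 0.19). CCL4L2, a near-identical copy of CCL4, had 2.98 and 3.4 CPM in DMF and 0.421 and 0.128 CPM in control, and CCL3 too has such a copy, so reads may be split between them. IL6 and IL10 were not called (0.27 ± 0.35 and 0.05 ± 0.14).

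In the STAT3 loop, 3 of 25 genes were called higher and 15 lower, with a median of -0.21. The replicate 3 pair did not share this decrease: 12 of the 25 were above 0 and 13 below. The median in that pair was -0.06, or 0.07 after the length trend was subtracted. SOCS3, a feedback inhibitor that STAT3 induces, had 1.64 and 2.21 CPM in DMF and 5.9 and 6.06 CPM in control (-1.63 ± 0.17, adjusted p = 1.1e-08). IL10RA, the IL-10 receptor chain, had 223 and 223 CPM in DMF and 351 and 344 CPM in control (-0.64 ± 0.04), and a replicate 3 difference of -0.19. PIM1, a kinase gene that STAT3 and NF-κB drive, had 1298 and 1364 CPM in DMF and 1765 and 1915 CPM in control (-0.47 ± 0.04). The kinase TYK2 fell by 0.49 ± 0.05. STAT3 itself was not called (-0.04 ± 0.05, adjusted p = 0.57). Toll-like receptor genes were mixed, with 5 of 23 called higher and 8 lower: UNC93B1, which carries endosomal receptors, had 46.4 and 51.8 CPM in DMF and 98.6 and 94.2 CPM in control (-0.97 ± 0.07), and the adaptor MYD88 fell by 0.34 ± 0.05. Among immediate early genes, 11 of 26 were called higher and 5 lower; DUSP2, a MAP kinase phosphatase, rose by 0.81 ± 0.07 and EGR3 by 0.93 ± 0.10.

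B cell genes moved in both directions. Of 26 B cell receptor genes, 8 were called higher and 12 lower. NFATC1, a calcium-driven transcription factor, had 243 and 247 CPM in DMF and 153 and 146 CPM in control (0.71 ± 0.05, adjusted p = 3.3e-12), and the coreceptor PIK3AP1 rose by 0.61 ± 0.06. CD22, an inhibitory coreceptor, had 48.4 and 49.1 CPM in DMF and 74.5 and 81.6 CPM in control (-0.68 ± 0.07), whereas MS4A1, which encodes CD20, rose by 0.34 ± 0.05. PTPRC, the phosphatase CD45, fell by 0.60 ± 0.05 in replicates 1 and 2 but had a difference of 0.21 in the replicate 3 pair.

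Of 26 B cell and plasmablast transcription factors 10 were called higher and 11 lower. STAT6, which transmits IL-4 signals, had 136 and 145 CPM in DMF and 293 and 282 CPM in control (-1.03 ± 0.04, adjusted p = 1e-15). POU2AF1, a coactivator of octamer-binding factors, had 273 and 309 CPM in DMF and 457 and 496 CPM in control (-0.71 ± 0.06), and SPI1, which encodes PU.1, fell by 0.93 ± 0.08. MEF2B and ID3 rose by 0.83 ± 0.07 and 0.64 ± 0.06. PRDM1, the plasma cell regulator BLIMP1, had 4.43 and 3.8 CPM in DMF and 2.14 and 2.86 CPM in control (0.70 ± 0.17, adjusted p = 0.0014), BCL6, which opposes it, fell by 0.45 ± 0.07, and IRF4, on which this lymphoma type depends, by 0.22 ± 0.05. The IRF4 and MEF2B differences were 0.18 and 0.04 in the replicate 3 pair. Of 18 plasma cell genes 9 were called higher and 5 lower, the surface receptor SLAMF7 rising (115 and 113 CPM in DMF, 46.5 and 48.2 CPM in control, 1.27 ± 0.07) and CD38 falling (18.5 and 16.9 CPM in DMF, 35 and 33.3 CPM in control, -0.94 ± 0.08).

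DNA replication genes were lower, none by 2-fold. Of 37, 33 were called lower and 1 higher, ORC6 (0.44 ± 0.08), with a median of -0.33. CDC45, a part of the replicative helicase, had 40.5 and 40 CPM in DMF and 76.3 and 68.2 CPM in control (-0.84 ± 0.06, adjusted p = 6.8e-11). POLA1, the polymerase that starts each strand, had 44 and 44.2 CPM in DMF and 74.3 and 76 CPM in control (-0.77 ± 0.05), and MCM4, a helicase subunit, 483 and 463 CPM in DMF and 701 and 685 CPM in control (-0.55 ± 0.04). In the replicate 3 pair 31 of the 37 were below 0. CCNE2, a cyclin of S-phase entry, had 13.5 and 12.2 CPM in DMF and 24 and 25.9 CPM in control (-0.96 ± 0.08), E2F2 fell by 0.50 ± 0.06, and CCND2, cyclin D2, by 0.63 ± 0.05. An E2F site, TTTCCCGC or TTTGGCGC, was found in a window of 18 of 33 replication genes (54.5%), of 4.54% of all genes and of 1.9% of the genes lower by at least 2-fold. It is shown for POLA1 at chrX:24693756-24693813 on the plus strand, where the match is on the opposite strand, and for LIG1, a DNA ligase, at chr19:48170426-48170483 on the minus strand.
POLA1: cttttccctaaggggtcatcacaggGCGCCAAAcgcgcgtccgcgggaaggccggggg
LIG1: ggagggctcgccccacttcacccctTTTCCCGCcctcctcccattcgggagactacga
Of mitotic genes, 12 of 30 were called higher and 3 lower, with a median of 0.10. CCNB1, cyclin B1, had 354 and 358 CPM in DMF and 247 and 239 CPM in control (0.55 ± 0.06, adjusted p = 2.3e-08), CDC20 rose by 0.52 ± 0.05 and PLK1 by 0.43 ± 0.05, while MKI67 was not called (-0.13 ± 0.10).

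Among 19 BCL2 family genes 8 were called higher and 4 lower. BIK, a pro-apoptotic BH3-only gene, had 34.8 and 37.6 CPM in DMF and 15.9 and 16.2 CPM in control (1.17 ± 0.08, adjusted p = 3.5e-12). BCL2, an inhibitor of apoptosis, had 494 and 455 CPM in DMF and 314 and 335 CPM in control (0.55 ± 0.08), while BCL2L1, another inhibitor, fell by 0.63 ± 0.05 and BMF, a BH3-only gene, by 0.76 ± 0.05. MCL1 was not called (0.00 ± 0.04). Of the TRAIL receptors, TNFRSF10A had 37.7 and 36.7 CPM in DMF and 20.4 and 20.9 CPM in control (0.85 ± 0.08), and CFLAR, which blocks caspase-8, fell by 0.36 ± 0.05. MYC was called lower (-0.28 ± 0.05), while MXD1, a repressor that competes with it for MAX, had 12.1 and 11.1 CPM in DMF and 4.25 and 5.19 CPM in control (1.28 ± 0.14).

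In lipid metabolism the desaturase FADS1 had 3.69 and 4.47 CPM in DMF and 13.2 and 11.9 CPM in control (-1.61 ± 0.12, adjusted p = 3.7e-11) and the elongase ELOVL6 6.32 and 6.79 CPM in DMF and 17.6 and 16.7 CPM in control (-1.39 ± 0.09). Their regulator SREBF1 fell by 0.49 ± 0.07, and 7 of 16 fatty acid genes were called lower and 4 higher. Of 24 genes of cholesterol synthesis and uptake 6 were called higher and 7 lower, beside 24.1% and 23.8% of all genes tested. Of 24 glycolysis genes 12 were called higher and 4 lower, none by 2-fold, and ALDOA, one of those called higher, rose by 0.43 ± 0.06. In the replicate 3 pair 12 of the 24 were above 0 and 12 below, with a median of 0.03. That median was 0.20 after the length trend was subtracted. ALDOA was at -0.03 in that pair, or 0.21 after the subtraction. Hypoxia-inducible genes were called higher in 11 of 23 and lower in none. ADM, adrenomedullin, had 17.9 and 21.9 CPM in DMF and 4.99 and 7.54 CPM in control (1.64 ± 0.14, adjusted p = 3.7e-10), and BHLHE40 44.6 and 51.7 CPM in DMF and 22.6 and 30.2 CPM in control (0.86 ± 0.12), but HIF1A was not called (0.01 ± 0.06). Of 22 genes of the TCA cycle, in which fumarate is an intermediate, 3 were called higher and 9 lower, among them FH, which hydrates fumarate (-0.20 ± 0.06, or -0.15 and not called without control replicate 1). Of the 33 nuclear genes of oxidative phosphorylation 24 were not called, and 6 were higher and 3 lower.

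Ribosomal protein genes had medians near that of all genes in replicates 1 and 2, 0.09 for 45 of the large subunit and 0.07 for 32 of the small subunit. Of the large subunit 11 were called higher and 1 lower, and of the small subunit 8 were called higher and none lower. All 77 were below 0 in the replicate 3 pair, with medians of -0.47 and -0.45 that became 0.01 and 0.02 after the length trend was subtracted. The 45S pre-ribosomal RNA copies were called higher. RNA45SN1 had 292 and 305 CPM in DMF and 39.1 and 37.4 CPM in control (2.96 ± 0.17, adjusted p = 1.8e-13), RNA45SN2 485 and 499 CPM in DMF and 76.7 and 99.9 CPM in control (2.48 ± 0.11), and RNA45SN4 727 and 728 CPM in DMF and 134 and 180 CPM in control (2.21 ± 0.11). In the replicate 3 pair their differences were 0.52, 0.79 and 0.47. These copies are near-identical, so single values are uncertain, and annotated ribosomal RNA took 1.148% and 1.229% of counts in DMF, against 0.72% and 0.725% in control. In replicate 3 that share was 2.161% in DMF and 2.461% in control, and its part in the result was not tested. Ribosome biogenesis genes were mostly not called (24 of 35), with 9 higher and 2 lower, POLR1C, a subunit of RNA polymerases I and III, being highest (0.52 ± 0.06).

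Some of the largest changes lay outside these pathways. MAP1A, a microtubule-associated protein (chromosome 15: 43510958-43531620), had 34.8 and 32.8 CPM in DMF and 2.04 and 2.58 CPM in control (3.85 ± 0.15, adjusted p = 1.4e-16). DST, dystonin, which links cytoskeletal filaments, had 7.36 and 6.58 CPM in DMF and 0.713 and 0.665 CPM in control (3.34 ± 0.25). CYP4F11, a fatty acid hydroxylase, had 1.07 and 1.29 CPM in DMF and 0.0972 and 0.0511 CPM in control (3.97 ± 0.51), and UPP1, uridine phosphorylase, 19.2 and 17.7 CPM in DMF and 2.63 and 2.99 CPM in control (2.71 ± 0.13). All 4 were below 3 CPM in control replicates 1 and 2, and UPP1 had 47.7 CPM in DMF replicate 3 and 12.5 CPM in control replicate 3. SGPP1, a sphingosine-1-phosphate phosphatase, had 491 and 462 CPM in DMF and 190 and 190 CPM in control (1.33 ± 0.05). Among the decreases COLCA2 had 0.164 and 0.108 CPM in DMF and 1.39 and 1.58 CPM in control (-3.43 ± 0.36, adjusted p = 2e-08). It lies on chromosome 11 at 111298555-111308735, near POU2AF1 at 111352252-111455630, which was also lower. TMEM154, a membrane protein, had 0.274 and 0.35 CPM in DMF and 3.14 and 3.2 CPM in control (-3.33 ± 0.28), and ZNF385C, a zinc finger gene, 1.42 and 2.02 CPM in DMF and 11 and 10.9 CPM in control (-2.66 ± 0.15). CASP1, the inflammatory caspase, was at 0.41 and 0.35 CPM in DMF and 2.33 and 2.15 CPM in control (-2.54 ± 0.28). Among genes with a mean of 300 CPM or more in either group, SASH3, a lymphocyte adaptor, fell to 258 and 276 CPM in DMF, against 451 and 445 CPM in control (-0.75 ± 0.04), and JUP, plakoglobin, to 220 and 219 CPM in DMF, against 332 and 327 CPM in control (-0.59 ± 0.04).

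The replicate 3 libraries, matched with each other, mostly had the sign of replicates 1 and 2. Of the 3277 genes called higher, 2699 (82.4%) were also higher in DMF replicate 3 than in control replicate 3, and of the 3238 called lower 2623 (81%) were also lower. For changes of at least 2-fold the shares were 245 of 272 (90.1%) and 546 of 603 (90.5%). Genes that were not called shared the sign in 57.7%, and 6844 of all 13606 genes tested were above 0 in that pair. The pair's difference followed transcript length, with a median of -0.56 for genes under 500 bases and 0.25 for those of 8000 bases and over, where replicates 1 and 2 gave 0.09 and -0.02. Once the trend was subtracted, 2847 of the genes called higher (86.9%) and 2708 of those called lower (83.6%) shared the sign.

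**Figure D4:**
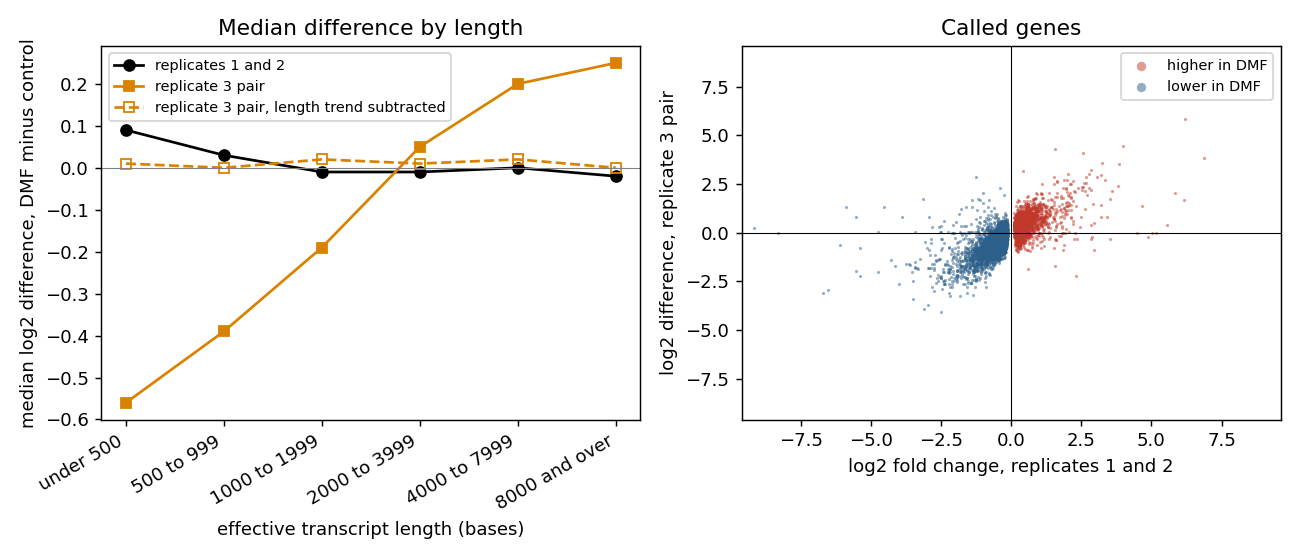
Left, median log2 difference of DMF minus control by effective transcript length for replicates 1 and 2 (black), the replicate 3 pair (orange) and that pair after subtracting the length trend (open squares); right, for each called gene, the log2 fold change of replicates 1 and 2 against the replicate 3 difference. The replicate 3 medians climb from -0.56 in the shortest class to 0.25 in the longest, and most called genes lie in the quadrants where both differences have the same sign.

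Tests of the difference between times, which share the 12 h libraries, showed where 12 h stood between 6 and 24 h. Relative to 6 h, the effect of DMF at 12 h was called above in 929 genes (6.83%) and below in 1070 (7.86%), and relative to 12 h the effect at 24 h was called above in 2692 (19.8%) and below in 2688 (19.8%). The first of these counts rests on all 4 libraries of 12 h: it was 586 without DMF replicate 1, 526 without DMF replicate 2, 554 without control replicate 1 and 614 without control replicate 2. With the replicate 3 libraries included, the counts were 16 and 60, and 501 and 242.

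Of the lists plotted by time, ATF4 targets had the widest range of medians. Their median log2 fold change was 0.83 at 6 h, 0.30 at 12 h and -0.55 at 24 h; 25 of 34 had a lower effect at 12 h than at 6 h, and 30 of 34 a lower effect at 24 h than at 12 h. CHAC1 had log2 fold changes of 1.47 at 6 h, -0.37 at 12 h and -0.92 at 24 h (difference of 12 h minus 6 h -1.84 ± 0.16, adjusted p = 2e-08), and VLDLR 1.42, -0.71 and -1.32 at the same times (-2.13 ± 0.20, adjusted p = 4.1e-08). Mean CHAC1 levels at 6, 12 and 24 h were 11.1, 6.53 and 5.44 CPM in DMF, and 3.99, 8.4 and 10.3 CPM in control. Those of VLDLR were 9.09, 3.32 and 6.32 CPM in DMF, and 3.38, 5.38 and 15.8 CPM in control. ALDH1L2, a mitochondrial folate enzyme, was called higher at 12 h (0.55 ± 0.12) and had a log2 fold change of -1.79 at 24 h (24 h minus 12 h -2.34 ± 0.15). Mean ALDH1L2 levels at 12 and 24 h were 32.3 and 24 CPM in DMF, and 22.2 and 83.1 CPM in control. The regulators of NRF2 had medians of 0.70, 0.52 and 0.04 at 6, 12 and 24 h, and 10 of 12 had a lower effect at 24 h than at 12 h. NRF2 targets kept a median of 1.02, 0.99 and 0.83; 7 of 30 had a higher and 5 a lower effect at 12 h than at 6 h, and 3 had a higher and 13 a lower effect at 24 h than at 12 h. NQO1 had fold changes of 2.29, 3.21 and 3.59, and both steps passed the test (12 h minus 6 h 0.92 ± 0.10, adjusted p = 9.7e-07; 24 h minus 12 h 0.38 ± 0.11, adjusted p = 0.0066). With all 24 libraries neither NQO1 step was called (0.81 with an adjusted p of 0.25, and 0.49 with an adjusted p of 0.38). Mean NQO1 levels at 6, 12 and 24 h were 43.2, 64.7 and 58.6 CPM in DMF, and 8.86, 7.02 and 4.86 CPM in control. OSGIN1 had its highest fold change at 12 h (5.21, 6.19 and 5.18; 12 h minus 6 h 0.98 ± 0.29, adjusted p = 0.024; 24 h minus 12 h -1.0 ± 0.36, adjusted p = 0.028). The first of these OSGIN1 differences was not called without DMF replicate 2 (0.84), control replicate 1 (1.08) or control replicate 2 (0.85), and the other not without DMF replicate 2 (-0.87) or control replicate 2 (-0.88). With all 24 libraries neither was called (0.88 and -0.93). Mean OSGIN1 levels at 6, 12 and 24 h were 36.5, 28.4 and 11.9 CPM in DMF, and 0.968, 0.39 and 0.326 CPM in control.

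Interferon-stimulated genes had medians of -0.64 at 6 h, -1.14 at 12 h and -0.63 at 24 h. Of 45, 9 had a lower effect at 12 h than at 6 h and 1 a higher one, and 25 had a higher effect at 24 h than at 12 h and none a lower one. For IFIH1 the log2 fold changes were -1.07, -2.46 and -1.72, its mean level in DMF was 3.14, 1.4 and 4.04 CPM, and its mean level in control was 6.62 CPM at 6 h, 7.75 CPM at 12 h and 13.3 CPM at 24 h. DNA replication genes had medians of -0.18, -0.33 and -0.20, while mitotic genes had 0.08, 0.10 and -0.42, with a lower effect at 24 h than at 12 h in 26 of 30. NF-κB targets had medians of -0.07, -0.37 and -0.64. MAP1A and DST had their highest fold changes at 12 h (2.30, 3.85 and 3.08 for MAP1A, 1.41, 3.34 and 1.74 for DST; 12 h minus 6 h 1.56 ± 0.23 and 1.93 ± 0.31, neither of which was called with all 24 libraries, at 1.48 and 1.83). For DST the mean level in control fell to 0.689 CPM at 12 h, against 3.27 CPM at 6 h, and in DMF to 6.97 CPM at 12 h, against 8.7 CPM at 6 h.

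COLCA2 and JPH3, a junctophilin, had a lower effect at 12 h than at 6 h (12 h minus 6 h -2.89 ± 0.48 and -1.81 ± 0.16). Among the highest differences between 12 and 24 h was that of BAIAP3, which was not called at 12 h (-0.53 ± 0.24, with 24 h minus 12 h of 2.36 ± 0.34). Mean BAIAP3 levels at 12 and 24 h were 1.56 and 1.98 CPM in DMF, and 2.24 and 0.554 CPM in control. CA9, a hypoxia-inducible carbonic anhydrase, was higher in DMF at 12 h (1.08 ± 0.19) and had a log2 fold change of -0.74 at 24 h. Its difference of 24 h minus 12 h was -1.82 ± 0.22, and -1.47 and not called with all 24 libraries. The mean level of CA9 in DMF was 6.83 CPM at 12 h and 7.01 CPM at 24 h, and in control 3.17 and 11.7 CPM. RAP1GAP, which switches off the GTPase RAP1, was at 8.37 and 8.89 CPM in DMF and 1.07 and 1.56 CPM in control at 12 h (2.68 ± 0.18). Its effect was lower at 24 h (-1.80 ± 0.23). The mean level of RAP1GAP in DMF was 8.63 CPM at 12 h and 9.02 CPM at 24 h, and in control 1.31 and 4.88 CPM.

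**Figure D5:**
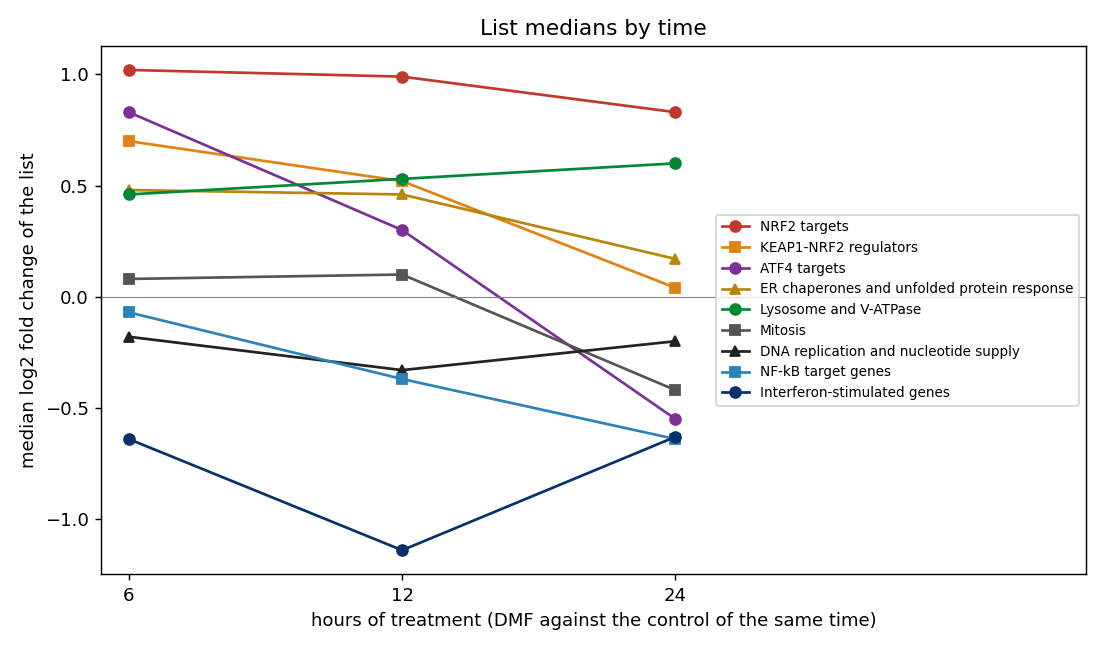
Median log2 fold change of 9 gene lists, DMF against the control of the same time, at 6, 12 and 24 h (evenly spaced on the axis), one line a list; the 12 h points use replicates 1 and 2. The NRF2 target line stays between 1.02 and 0.83, the ATF4 target line crosses 0 between 12 h (0.30) and 24 h (-0.55), and the interferon line is lowest at 12 h (-1.14).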

How the data were processed

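RNA-seq was done on HBL-1 cells treated with DMF or DMSO (24 libraries). The authors deposited RSEM tables with expected counts per gene, not normalized, and with the effective length in bases, per the file headers. The submitters' processing notes name HISAT2, HISAT and RSEM and the build GRCh38.p12. Versions, the way strand was used in counting and the annotation are not given in the sources used here. The tables held 21831 genes; mitochondrially encoded genes and small nucleolar RNA host genes were not analysed here.

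The expected counts were rounded first, filterByExpr kept 13606 genes, and TMM gave the scaling factors. edgeR 4.0.16 (R 4.3.3) fitted a quasi-likelihood model with 8 groups to 22 libraries, leaving out replicate 3 of both 12 h groups, and p-values were adjusted over all genes tested (Benjamini-Hochberg, threshold 0.05). CPM values of replicate 3 come from a scaling of all 24 libraries. DMF replicate 3 minus control replicate 3 was a matched difference with no test, and its trend with effective length was subtracted as a second value. Differences between times were contrasts of the same fit. Alternatives were DESeq2 1.42.0, other scalings and filters, other sets of libraries, and a replicate block. The scripts were tested on simulated data. Replicates 1 and 2 differed beyond sampling noise (chi-square over degrees of freedom 5.9 in DMF and 6.36 in control).

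Genes named are the 12 highest and 12 lowest fold changes with a mean of at least 1 CPM, groups that do not overlap and the sign of replicate 3, or in part these; the 8 highest and 8 lowest at 300 CPM or more; up to 5 members with the smallest p of each list, with members that were not called; the 4 highest and 4 lowest differences between times; and a panel of ferroptosis and lymphoma genes. Other genes with values in the text were chosen after their values were seen. The members and lists were chosen with earlier results of these data known. Gene coordinates are from GENCODE v29 by symbol, and promoter windows are from RefSeq (GRCh38.p14), where a gene holds a motif if any of its windows does. Some list members are counted but not reported by name here.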

Additional observations from a re-analysis of the deposited data

Results flagged for a closer look

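The effect of DMF differed between times by the test of the difference itself. Against 6 h, the effect at 12 h was above in 929 genes and below in 1070. Against 12 h, the effect at 24 h was above in 2692 genes and below in 2688. Of the genes named, the difference of 12 h minus 6 h on the log2 scale was 1.93 for DST, 1.56 for MAP1A, 0.98 for OSGIN1 and 0.92 for NQO1, and it was -1.81 for JPH3, -1.84 for CHAC1, -2.13 for VLDLR and -2.89 for COLCA2. The difference of 24 h minus 12 h was 2.36 for BAIAP3 and 0.38 for NQO1, and it was -1.0 for OSGIN1, -1.80 for RAP1GAP, -1.82 for CA9 and -2.34 for ALDH1L2. Both differences use the same 12 h libraries.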

How the results depend on the processing

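With all 24 libraries, replicate 3 of 12 h included, 989 genes were called higher and 1335 lower, the effect at 12 h was above that at 6 h in 16 and below it in 60, and the effect at 24 h was above that at 12 h in 501 and below it in 242. In the 6 libraries of 12 h with a replicate block, 1307 were called higher, 1808 lower and 177 higher by at least 2-fold. The cause was not tested. Leaving out 1 of the 4 libraries compared at a time gave fewer calls, 2624 to 2706 genes higher and 2642 to 2763 lower, against 3277 and 3238. By at least 2-fold 233 to 262 were higher and 522 to 561 lower. The difference from 6 h had 526 to 614 above and 742 to 847 below, and that to 24 h 2142 to 2421 above and 2057 to 2402 below. Without replicate 1 of DMF at 48 h, 3296 genes were higher and 3257 lower, 270 and 603 by at least 2-fold. The difference from 6 h then had 947 above and 1081 below, and that to 24 h 2716 above and 2713 below. Among the 22 libraries, same-numbered libraries did not all deviate together (correlations of deviations between -0.2 and 0.15), so the number was not taken as a pairing there; replicate 3 of 12 h was not in this check. With a replicate block on the 22 libraries, 3211 genes were called higher and 3179 lower, 261 and 571 by at least 2-fold, the difference from 6 h had 817 above and 972 below, and that to 24 h had 2582 above and 2611 below. That block ended the calls of CD8A and TFEB among the genes named and of none of the 14 named differences between times.

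With all 24 libraries 49 of the genes named lost their call at 12 h (ACSL4, AIFM2, ALDH1L2, ALDOA, BACH1, BCL2, BCL6, CA9, CALR, CANX, CCNE2, CD8A, CDC20, CHAC1, DDIT3, EGR3, FH, GCH1, HSPB1, ID3, IFI30, IL10RA, IRF4, ISG20, MANF, MAP1LC3A, MEF2B, MS4A1, MYD88, P4HB, PARP9, PGD, PIK3AP1, PIM1, POLA1, POLR1C, PRDM1, PSMB5, PTPRC, RBX1, STAT2, TALDO1, TFEB, TFRC, TXN, TXNIP, TXNRD2, VLDLR and YARS), as did 7 of 14 named differences between times. In the 6 libraries with a replicate block 23 lost it, all named in the report. Signs changed in genes near 0. With all 24 libraries ACO1 was at -0.03, ATF4 at -0.00, GPX4 at -0.46, STAT3 at 0.02 and TFEB at -0.04. In the 6 libraries with a replicate block ACO1 was at -0.04, ATF4 at -0.00, GPX4 at -0.22, IREB2 at 0.07 and STAT3 at 0.05. HIF1A was at -0.00 without a low-count filter and at -0.01 in the 4 libraries alone, and MCL1 at -0.01 in both. Over the fits without 1 library the range was -0.01 to 0.05 for ACO1, -0.03 to 0.08 for ATF4, -0.08 to 0.16 for GPX4, -0.07 to 0.02 for GSS, -0.07 to 0.08 for HIF1A, -0.09 to 0.00 for HLA-B, -0.73 to 1.02 for HSPA1A, -0.17 to 0.27 for IL10, -0.03 to 0.59 for IL6 and -0.03 to 0.01 for MCL1. Of these genes only TFEB was called.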
